A study of Mus musculus with 8 samples.

Results

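Neurotrophins are secreted growth factors made as larger precursors and cut to their mature form. BDNF, encoded by *Bdnf*, acts through the receptor tyrosine kinase TrkB, encoded by *Ntrk2*, and neurotrophin-3, encoded by *Ntf3*, acts mainly through TrkC, encoded by *Ntrk3*. The p75 receptor, encoded by *Ngfr*, binds all neurotrophins and signals together with sortilin, encoded by *Sort1*, when the ligand is an uncut precursor. Sortilin also sorts neurotrophin precursors and Trk receptors inside the cell. In the cortex, BDNF comes largely from pyramidal cells, TrkB signalling supports the maturation of PV+ interneurons, and astrocytes carry a TrkB form without the kinase. The genes described here are these 6, matched by gene name in the deposited tables, out of 45706 genes listed there. Of the 6, 5 passed the filter on low counts, as did 17495 genes in all, and *Ngfr* did not.

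The data are ribosome-associated mRNA of PV+ interneurons from the primary somatosensory cortex (S1) of PvalbFlp/+;Neurod6Cre/+ mice, in 4 samples of mice treated with CNO and 4 of mice given vehicle. All mice of both groups carried the same alleles, received on postnatal day 1 an AAV whose flox-fdio construct encodes HA-RPL10a joined to myc-hM3Dq under the neuronal hSyn promoter, and were studied between postnatal days 42 and 70. The virus is switched on by Flp in *Pvalb*-expressing cells and switched off by Cre in pyramidal cells, and it makes an HA-tagged ribosomal protein for the pulldown and hM3Dq, a designed muscarinic receptor that raises neuronal activity when it binds CNO. CNO was given at 1 mg/kg in 5 injections over about 48 h, and vehicle mice carried hM3Dq as well but received no CNO. None of the samples came from mice without the receptor, each sample pooled S1 tissue from 4 brains, and only infected cells were tagged. The comparison asks which ribosome-bound mRNAs of PV+ interneurons differ after a sustained rise in their own activity. *Fos*, induced by neuronal activity, lay between 32.2 and 69.5 CPM in the CNO samples and between 11.3 and 15.8 CPM in the vehicle samples, where CPM is the count scaled to a common library total after TMM normalization.

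Total counts ranged from 44064161 to 49413273 per sample, so that 3 counts, taken here as the smallest level the depth can show, were worth 0.0607 to 0.0681 CPM. This floor covers counting error only. Vehicle replicate 1 stood apart. Its *Pvalb* level was 300.1 TPM (transcript counts corrected for length and scaled to a common total) against 820 to 1160 TPM in the other 7 samples. The summed TPM of 10 PV+ interneuron markers was 1211 there, 2588 to 4005 in the CNO samples and 2946 to 3191 in the other vehicle samples. The summed TPM of 12 pyramidal cell markers was 1427 to 1959 in CNO and 1612 to 2284 in vehicle samples, and no marker of either list was at 0 in any sample. Markers of both cell types were thus present in all pulldowns. The marker index, which subtracts the mean log2 CPM of the pyramidal list from that of the PV+ list, was -0.11 in vehicle replicate 1 and 1.00 to 2.02 in the other samples. In such bulk samples, fewer cells of a type and less RNA per cell cannot be told apart. Values that rest on vehicle replicate 1 are given below with and without it.

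The marker lists leaned in opposite directions between the groups, although 0 of their genes were called. With CNO, 10 of 10 PV+ interneuron markers had a higher fitted level (median log2 fold change 0.41, and 0.19 without vehicle replicate 1), and 11 of 12 pyramidal markers a lower one (median -0.11, and -0.08 without it). Lower fitted levels were also found for 8 of 8 oligodendrocyte lineage markers, which summed to 504 to 915 TPM with CNO and 680 to 883 TPM with vehicle. The same held for 6 of 6 microglia markers, at 42 to 66.6 TPM with CNO and 52.8 to 79.9 TPM with vehicle. Of 8 vascular markers, 6 were higher, with sums of 43.5 to 116 TPM with CNO and 54.0 to 92.2 TPM with vehicle. The summed levels overlapped between groups in each list, and their part in the results below was not tested. Some fits below add the marker index. It comes from the same samples and leaned higher with CNO, at 1.00 to 2.02 against -0.11 to 1.45 with vehicle. Such a fit therefore cannot separate cell makeup from treatment, and its values are given as a description.

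None of the 5 members tested passed the cut-offs for a called gene (Benjamini-Hochberg adjusted p under 0.05 in edgeR's quasi-likelihood test, more than 1.5-fold in size, and over 1 TPM on average). Over all 17495 genes, 0 were called (0%), and the smallest adjusted p was 0.0520. Other tests on the same counts called a few genes, 12 with a robust dispersion and likelihood ratio test and 10 with DESeq2, and 0 members were among them. At an unadjusted p under 0.05, 716 genes were found (4.09% of those tested), 252 higher and 464 lower with CNO, and 0 members. The intervals below give the size of change that the 4 against 4 samples leave possible for each member.

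The receptor genes *Ntrk2*, *Sort1* and *Ntrk3* were more abundant than the ligand genes, whereas the receptor gene *Ngfr* was the least abundant member. By mean TPM over the 8 samples, the order was *Ntrk2* at 59.7 ± 5.56 (SD, n = 8), *Sort1* at 51.6 ± 5.14, *Ntrk3* at 16.5 ± 1.85, *Bdnf* at 6.41 ± 1.10, *Ntf3* at 4.44 ± 1.30 and *Ngfr* at 0.0249 ± 0.0134. *Ntrk2* exceeded 81.4% of all tested genes in mean TPM, *Sort1* 78.4%, *Ntrk3* 54.2%, *Bdnf* 38.0% and *Ntf3* 32.4%. *Ntrk2* made up 41.5% to 44.8% of the TPM summed over the 6 genes in each sample, and *Sort1* 33.3% to 39.8%.

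The order was set by these samples, so the gaps between neighbours are given as a description, as the mean ± SD of the 8 within-sample differences in log2(TPM + 0.01). *Ntrk2* exceeded *Sort1* in 8 of 8 samples, by only 0.21 ± 0.103 on the log2 scale. *Sort1* exceeded *Ntrk3* by 1.65 ± 0.245 and *Ntrk3* exceeded *Bdnf* by 1.38 ± 0.187 on the log2 scale, each in 8 of 8 samples. *Bdnf* exceeded *Ntf3* in 7 of 8 samples, by 0.59 ± 0.756 on the log2 scale, a mean smaller than its SD. Vehicle replicate 1 widened this spread, with an *Ntf3*/*Bdnf* ratio of 0.195 against 0.635 to 1.04 in the other samples. Without vehicle replicate 1 the mean difference was 0.34, with *Bdnf* higher in 6 of 7 samples.

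**Figure D1:**
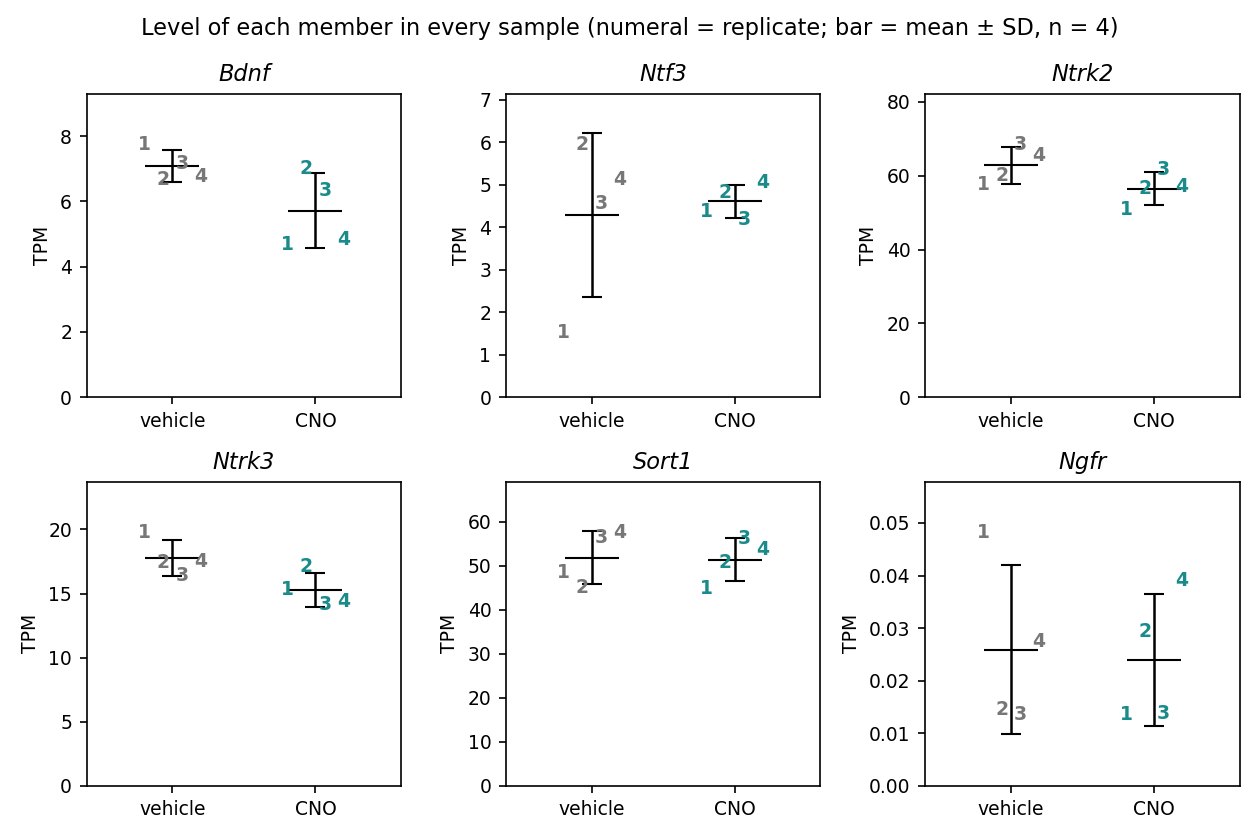
Level of each of the 6 genes in TPM (vertical axes, linear and starting at 0, with a different range in each panel) in the vehicle and CNO samples. Numerals are replicate numbers and bars are the mean ± SD of 4 samples. *Bdnf* in CNO replicates 1, 3 and 4 lies below all vehicle samples, *Ntf3* in vehicle replicate 1 (1.51 TPM) lies far below the other 7 samples, and *Ngfr* stays under 0.05 TPM.

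*Bdnf*, the TrkB ligand and a gene known to be induced by activity in pyramidal cells, was not higher after CNO. It was counted 403, 559, 545 and 435 times in CNO replicates 1 to 4 and 566, 546, 625 and 580 times in vehicle replicates 1 to 4. These counts correspond to 4.67, 7.02, 6.35 and 4.83 TPM with CNO and to 7.76, 6.68, 7.17 and 6.78 TPM with vehicle. In TPM, CNO replicates 1, 3 and 4 were below every vehicle sample and CNO replicate 2 lay within the vehicle range, so that the groups overlapped. In CPM, CNO replicate 3 was level with the lowest vehicle sample (both 11.7). The mean was 10.3 ± 1.69 CPM (SD, n = 4) with CNO and 12.3 ± 0.671 CPM with vehicle. The log2 fold change was -0.25 with a standard error of 0.13 (95% interval -0.54 to 0.03, adjusted p = 0.817 in edgeR's quasi-likelihood test). As a fold, CNO was 0.840 times vehicle (95% interval 0.690 to 1.02). The exact permutation test of the 4 against 4 samples gave p = 0.143 (two-sided).

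Cell type markers differed alongside *Bdnf* between the CNO samples. The CNO samples with least *Bdnf*, replicates 1 and 4, also had the lowest pyramidal marker sums among the CNO samples, 1613 and 1427 TPM, and the highest PV+ marker sums of all 8 samples, 3601 and 4005 TPM. CNO replicate 2, with most *Bdnf* of the CNO samples, had the highest pyramidal sum among them, 1959 TPM. The vehicle samples did not keep this order. Vehicle replicate 3 had their lowest pyramidal sum (1612 TPM) with *Bdnf* at 7.17 TPM. Vehicle replicate 2, with their least *Bdnf* (6.68 TPM), had a sum of 2158 TPM, and vehicle replicate 1 was highest of them in both (2284 and 7.76 TPM). When the marker index was added to the fit, the *Bdnf* log2 fold change between CNO and vehicle was -0.18 with a standard error of 0.13. Without vehicle replicate 1 it was -0.24, since that sample's *Bdnf* was 1.05 times the mean of the other vehicle samples.

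The *Bdnf* gene lies at chr2:109674700-109727007 on the forward strand (GRCm38) and has 11 annotated transcripts from 9 start positions, all coding. The count sums over all of them, so a shift between starts would not be seen in it. *Bdnf* overlaps 1 annotated gene, *Gm45346* on the reverse strand, which the deposited data do not list. Of the 31-base stretches in its transcripts, 13.5% also occur, on either strand, in transcripts of 6 other genes. One start is shown because it holds the only match, among the 7 RefSeq *Bdnf* windows of 250 bases before a start, to CGTCA, the core of the cAMP response element through which activity-regulated factors act. The window is chr2:109692186-109692435 on the forward strand (RefSeq, GRCm38.p6), 5′ to 3′, with the match in capitals, its last base 31 bases before the start.
*Bdnf* window 3: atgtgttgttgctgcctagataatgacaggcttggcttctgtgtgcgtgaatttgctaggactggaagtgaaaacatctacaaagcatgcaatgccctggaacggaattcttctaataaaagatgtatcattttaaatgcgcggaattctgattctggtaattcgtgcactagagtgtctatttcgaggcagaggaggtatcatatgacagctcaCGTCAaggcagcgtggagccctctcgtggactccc
CGTCA was searched on both strands and occurs in 17.8% of all 32851 windows of this length, so that 1 match in 7 windows is a description only. The full element TGACGTCA, which contains it and occurs in 1.55% of all windows, was in 0 of the 11 windows of the 4 members that had any (*Bdnf*, *Ntf3*, *Ntrk2* and *Ngfr*).

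*Ntf3*, the TrkC ligand, varied more within the vehicle group than any other tested member. It was counted 122, 117, 114 and 146 times in CNO replicates 1 to 4, and 33, 158, 126 and 140 times in vehicle replicates 1 to 4. In TPM the CNO samples held 4.37, 4.82, 4.18 and 5.04 and the vehicle samples 1.51, 5.95, 4.55 and 5.11. The 4 CNO samples sat close together, and 3 vehicle samples lay in or above their range, whereas vehicle replicate 1 was far below all others. The fitted log2 fold change was 0.14 with a standard error of 0.36 (95% interval -0.64 to 0.93, adjusted p = 0.915 in edgeR's quasi-likelihood test; exact permutation p = 0.857). Without vehicle replicate 1 it was -0.16 with a standard error of 0.18, so the sign rested on that sample.

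The low *Ntf3* value came with low PV+ interneuron markers. In vehicle replicate 1, *Ntf3* was at 0.263 times the mean of the other vehicle samples and *Pvalb* at 0.278 times, both from log2 CPM. *Slc17a7*, which encodes the glutamate transporter VGLUT1 of pyramidal cells, was at 1.14 times that mean, *Bdnf* at 1.05 and *Ntrk3* at 1.05, with *Sort1* at 0.856 and *Ntrk2* at 0.821. In this sample *Ntf3* was thus low together with *Pvalb*, whereas *Bdnf* was near the level of the other vehicle samples. The pairing rested on this sample, and the others were mixed. Vehicle replicate 2 had the most *Ntf3* (5.95 TPM) and the lowest PV+ marker sum of the other vehicle samples (2946 TPM). Among the CNO samples, replicate 4 was highest in both (5.04 and 4005 TPM). CNO replicate 2 had the lowest sum of them (2588 TPM) but more *Ntf3* (4.82 TPM) than CNO replicates 1 and 3. Once the marker index entered the fit, the *Ntf3* log2 fold change was -0.26 with a standard error of 0.27. The *Ntf3* gene lies at chr6:126101412-126166910 on the reverse strand (GRCm38), with 3 transcripts, and overlaps no other annotated gene.

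**Figure D2:**
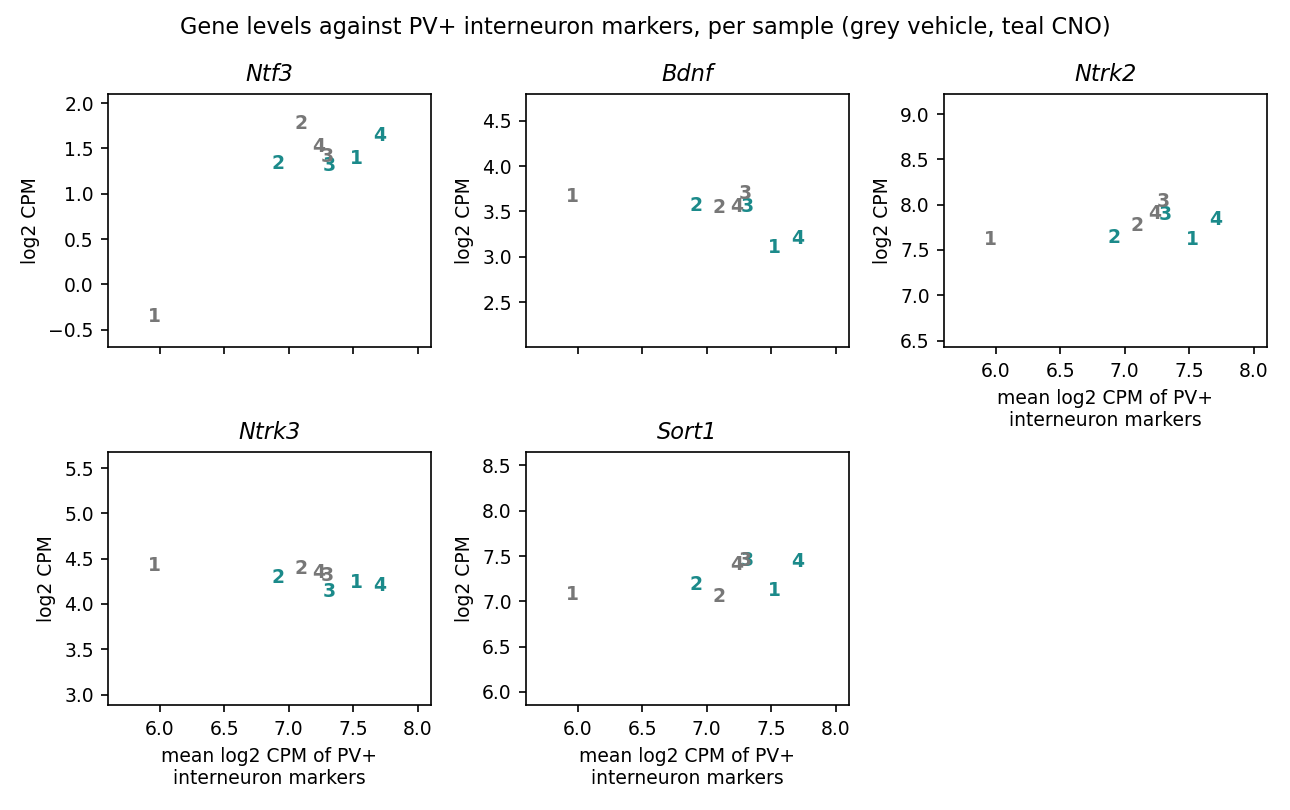
Log2 CPM of *Ntf3*, *Bdnf*, *Ntrk2*, *Ntrk3* and *Sort1* (vertical axes, each spanning the same number of log2 units) against the average log2 CPM over 10 PV+ interneuron markers (horizontal axis) in the 8 samples. Numerals are replicate numbers, grey for vehicle and teal for CNO. Vehicle replicate 1, at 5.96 on the horizontal axis, is lowest in *Ntf3* but not in *Bdnf* or *Ntrk3*.

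*Ntrk2*, the TrkB gene, was the most abundant member. The CNO samples held 50.8, 56.6, 61.6 and 57.0 TPM in replicates 1 to 4 and the vehicle samples 57.6, 59.9, 68.6 and 65.4 TPM. CNO replicates 1, 2 and 4 were below every vehicle sample and CNO replicate 3 lay within the vehicle range, so that the groups overlapped. In CPM, CNO replicates 2, 3 and 4 lay within it, and the means were 215 ± 21.0 (SD, n = 4) with CNO and 229.5 ± 28.3 with vehicle. The log2 fold change was -0.09 with a standard error of 0.12 (95% interval -0.35 to 0.17, adjusted p = 0.843 in edgeR's quasi-likelihood test; exact permutation p = 0.486). It was -0.16 without vehicle replicate 1 and -0.02 without vehicle replicate 3. With the marker index in the fit it was -0.20 with a standard error of 0.089, which passed 0.05 before adjustment but not after it (edgeR adjusted p = 1.00). Astrocyte markers, 8 genes with none at 0 in any sample, summed to 496 to 578 TPM with CNO and 509 to 635 TPM with vehicle, and their part in the *Ntrk2* level was not tested.

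*Ntrk3*, the TrkC gene, was the one member whose groups did not overlap in CPM. It was at 18.9, 19.6, 17.6 and 18.4 CPM in CNO replicates 1 to 4 and at 21.4, 20.9, 19.8 and 20.4 CPM in vehicle replicates 1 to 4. All CNO samples were below all vehicle samples, as were those of 285 genes (1.63% of the 17495 tested), and groups were apart in either direction for 423 genes (2.42%). The gap was narrow, from 19.6 to 19.8 CPM, and closed in TPM, where CNO replicate 2 (17.1) was above vehicle replicate 3 (16.4). The other CNO samples held 15.3, 14.1 and 14.4 TPM and the other vehicle samples 19.8, 17.4 and 17.5 TPM. The mean was 18.6 ± 0.853 CPM (SD, n = 4) with CNO and 20.6 ± 0.681 CPM with vehicle, the smallest spread relative to the mean among the members. The log2 fold change was -0.15 with a standard error of 0.084 (95% interval -0.33 to 0.04, adjusted p = 0.817 in edgeR's quasi-likelihood test). The exact permutation test gave p = 0.0286, the smallest that 4 against 4 samples allow. Any gene whose groups do not overlap gets this value, so it adds nothing to the non-overlap. In fold terms CNO was 0.902 times vehicle, with an interval from 0.793 to 1.03. A fit with the marker index gave a log2 fold change of -0.11 with a standard error of 0.079, and without vehicle replicate 1 it was -0.13.

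Both Trk genes encode receptor forms with and without the kinase, which act differently on the same ligand. *Ntrk2*, at chr13:58806569-59133970 on the forward strand (GRCm38), has 7 transcripts with a complete reading frame that encode proteins of 466 to 821 residues. *Ntrk3*, at chr7:78175959-78738012 on the reverse strand, has 4 such transcripts, for proteins of 612 to 864 residues. Counts were given per gene, so the forms cannot be told apart here. For neither the library kit nor the counting is strand use stated in the sources used here, so reads of overlapping antisense genes could be included. In the deposited table, *Gm9885*, antisense to *Ntrk3*, was counted 199 to 303 times per sample, against 820 to 1009 counts for *Ntrk3* itself, and part of either could belong to the other.

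*Ngfr*, the p75 receptor gene, was at the floor of the measurement. It was counted 1, 2, 1 and 3 times in CNO replicates 1 to 4 and 3, 1, 1 and 2 times in vehicle replicates 1 to 4. No sample of either group exceeded 3 counts, so no fold change is given, and differences among so few counts cannot be measured at this depth. The gene lies at chr11:95568818-95587735 on the reverse strand (GRCm38), with 1 transcript that encodes 427 residues.

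*Sort1*, the sortilin gene, was nearly as abundant as *Ntrk2* and showed almost no difference with CNO. The CNO samples held 44.8, 50.7, 56.2 and 53.8 TPM in replicates 1 to 4 and the vehicle samples 48.5, 45.0, 56.4 and 57.5 TPM. The ranges coincided. The log2 fold change was 0.05 with a standard error of 0.13 (95% interval -0.24 to 0.34, adjusted p = 0.921 in edgeR's quasi-likelihood test; exact permutation p = 0.543). The gene lies at chr3:108284082-108361511 on the forward strand (GRCm38), and its antisense neighbour *Gm12523* was counted at most 6 times per sample, against 6035 counts or more for *Sort1*. *Gm43099*, which overlaps it on the same strand, was counted 25 to 74 times.

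The largest difference in *Sort1* ran along the replicate numbers rather than the treatment. It was at 133 to 145 CPM in replicates 1 and 2 of both groups and at 170 to 175 CPM in replicates 3 and 4. How many of all genes were apart along these numbers was not counted. The log2 difference of replicates 3 and 4 from 1 and 2 was 0.33 with a standard error of 0.082 (edgeR adjusted p = 0.0956). *Ntrk2* moved the same way, from 196 to 219 CPM in replicates 1 and 2 to 229 to 263 CPM in replicates 3 and 4, by 0.26 on the log2 scale with a standard error of 0.090 (edgeR adjusted p = 0.207). Over all genes, 142 passed an adjusted p under 0.05 in this comparison (0.812%), with neither *Sort1* nor *Ntrk2* among them. The comparison was made because the samples separated along these numbers in earlier work on the data, so that its p-values are no independent test. The labels name no batch behind the numbers. Within replicates 1 and 2, the log2 difference between CNO and vehicle was -0.27 for *Bdnf*, -0.07 for *Ntrk2*, -0.14 for *Ntrk3* and 0.09 for *Sort1*. Within replicates 3 and 4, it was -0.25, -0.11, -0.16 and 0.02 in the same order of genes, so these 4 kept their sign in both pairs. For *Ntf3* it was 0.66 in the pair with vehicle replicate 1 and 0.01 in the other pair.

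The balance between ligands and receptors within a sample does not depend on the scaling of the library, and 4 TPM ratios were compared by two-sided exact permutation tests of their log2 values, adjusted together. The *Ntrk3*/*Ntrk2* ratio was 0.302, 0.302, 0.229 and 0.253 in CNO replicates 1 to 4 and 0.343, 0.290, 0.239 and 0.268 in vehicle replicates 1 to 4, and the log2 difference was -0.07 (exact permutation p = 0.600), or 0.03 without vehicle replicate 1. TrkC mRNA was thus present at roughly the same proportion of TrkB mRNA in either group, with overlapping values. The *Ntf3*/*Bdnf* ratio was 0.935, 0.687, 0.658 and 1.04 with CNO and 0.195, 0.891, 0.635 and 0.754 with vehicle. Its log2 difference of 0.60 (exact permutation p = 0.314) shrank to 0.12 without vehicle replicate 1. The *Bdnf*/*Ntrk2* ratio lay between 0.0847 and 0.124 with CNO and between 0.104 and 0.135 with vehicle (log2 difference -0.18, exact permutation p = 0.229). This difference was -0.09 without vehicle replicate 1 and -0.28 without CNO replicate 2 (exact permutation p = 0.0571). The *Ntf3*/*Ntrk3* ratio lay between 0.282 and 0.350 with CNO and between 0.0765 and 0.342 with vehicle (log2 difference 0.49, exact permutation p = 0.457, and -0.0043 without vehicle replicate 1). All 4 adjusted p-values were 0.600.

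The other neurotrophins, Trk and sortilin-family receptors comprise 7 genes, of which 6 were tested. Of these, 2 were higher and 4 lower with CNO and 0 were called. The median log2 fold change was -0.10 (-0.06 without vehicle replicate 1) against 0.0014 over all genes. At an unadjusted p under 0.05 there was 1 gene, beside 4.09% of all genes tested. *Sorcs3*, which encodes a sortilin-related sorting receptor, was that gene. It was at 7.70, 10.2, 9.19 and 6.36 TPM in CNO replicates 1 to 4 and at 10.9, 9.80, 10.5 and 11.2 TPM in vehicle replicates 1 to 4. CNO replicate 2 lay within the vehicle range and the other 3 below it. The log2 fold change was -0.28 with a standard error of 0.12 (edgeR adjusted p = 0.817). *Ntf5*, the neurotrophin-4 gene, was at a mean of 0.541 TPM. Of the sorting receptors related to sortilin, *Sorl1* had a mean of 47.4 TPM, close to *Sort1*.

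**Figure D3:**
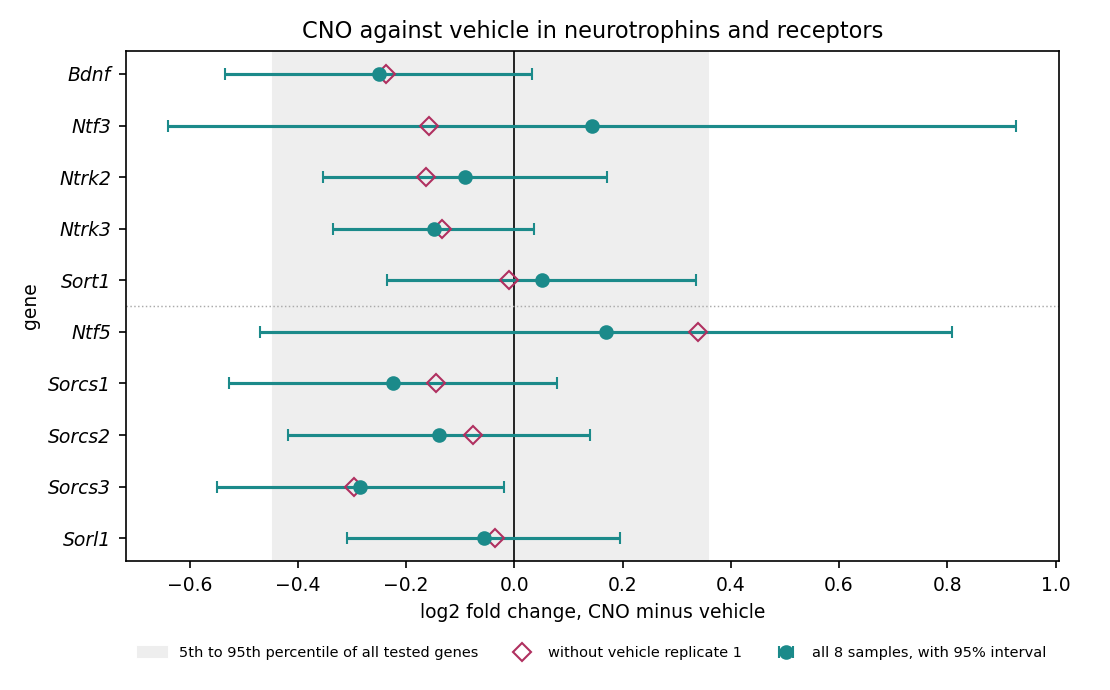
Log2 fold change of CNO against vehicle (horizontal axis) for the 5 tested members (above the dotted line) and 5 related genes. Filled circles with bars are the fitted values of all 8 samples with 95% intervals, open diamonds the values without vehicle replicate 1, and the grey band spans the 5th to 95th percentile of all 17495 genes (-0.45 to 0.36). All intervals except that of *Sorcs3* include 0, and those of *Ntf3* and *Ntf5* are the widest.

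Of 15 genes for neurotrophin precursor processing and release, 13 were tested, 5 higher and 8 lower with CNO (median log2 fold change -0.04). None was called, and 2 had an unadjusted p under 0.05, beside 4.09% of all genes tested. *Pcsk2* encodes a prohormone convertase of dense-core vesicles. It was at 52.0, 72.2, 62.6 and 45.7 TPM in CNO replicates 1 to 4 and at 101, 78.0, 65.4 and 72.1 TPM in vehicle replicates 1 to 4. Its CNO samples were all below its vehicle samples in CPM, as in 1.63% of all genes tested (2.42% apart in either direction). In TPM its groups overlapped, and the log2 fold change was -0.36 with a standard error of 0.13 (edgeR adjusted p = 0.817). *Cadps2* encodes a protein that primes dense-core vesicles for release. It was at 64.1, 80.7, 70.7 and 51.3 TPM with CNO and at 107, 79.8, 74.3 and 90.0 TPM with vehicle, with a log2 fold change of -0.31 and a standard error of 0.13 (edgeR adjusted p = 0.817). In both genes vehicle replicate 1 was the highest sample and CNO replicate 4 the lowest, the samples with the lowest and the highest marker index (-0.11 and 2.02). Without vehicle replicate 1 neither passed 0.05 before adjustment, with log2 fold changes of -0.27 and -0.24.

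The machinery downstream of the receptors showed no called gene. All 31 Trk adaptors and signalling genes were tested, 18 higher and 13 lower, with 0 at an unadjusted p under 0.05 and a median log2 fold change of 0.04, which was -0.01 without vehicle replicate 1. Among the most abundant were *Map2k2* (the kinase MEK2, mean 226 TPM, log2 fold change 0.04) and *Akt1* (208 TPM, 0.23), for which the values without vehicle replicate 1 were -0.02 and 0.10. Among the 13 p75 receptor partners, all tested, 3 were higher and 10 lower, with 0 at an unadjusted p under 0.05 and a median of -0.06. The most abundant were *Ngfrap1* (344 TPM, log2 fold change 0.16), *Maged1* (268 TPM, 0.14) and *Rtn4*, the Nogo gene (176 TPM, 0.07). These 3 values rested on vehicle replicate 1, without which they were 0.0030, 0.04 and 0.0024. Without it, 1 gene of the list, *Bex1*, which encodes a p75-binding protein, had an unadjusted p under 0.05 (log2 fold change -0.32, and -0.24 with all samples). So had 400 of all 17661 genes tested without that sample. *Ngfrap1*, *Maged1* and *Rtn4* were thus abundant in pulldowns in which *Ngfr* itself was counted at most 3 times. Other genes of the list lay lower, down to a mean of 1.69 TPM.

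**Figure D4:**
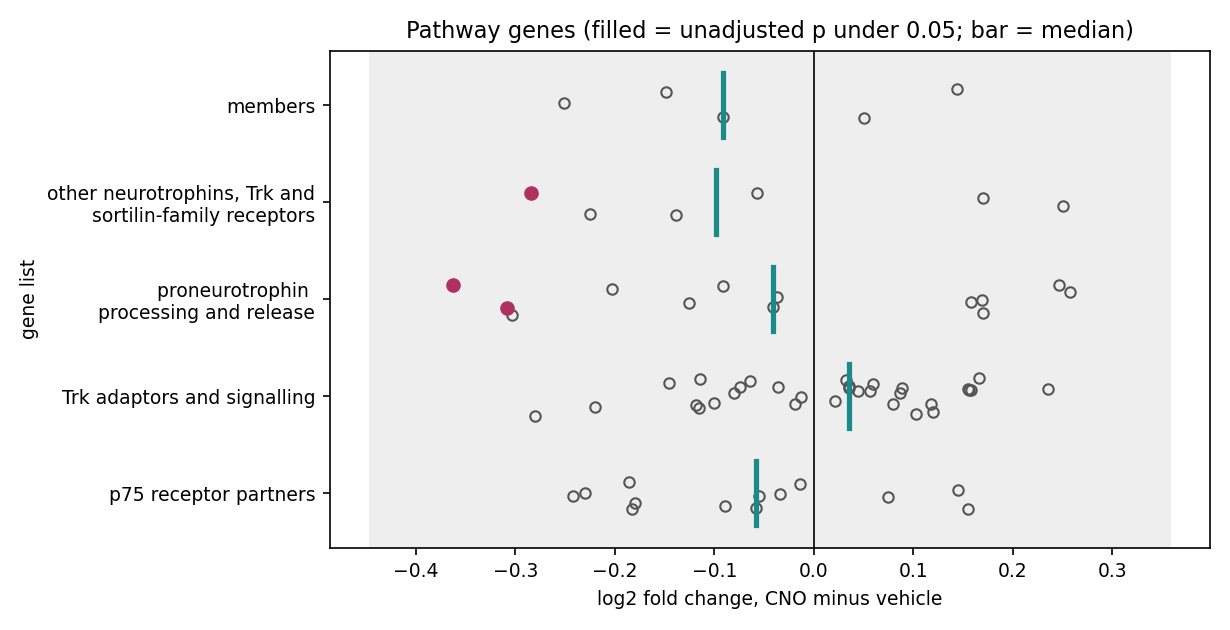
Log2 fold change of CNO against vehicle (horizontal axis) for each tested gene of 5 lists (rows). Circles are genes, filled where the unadjusted p was under 0.05, vertical bars are list medians and the grey band spans the 5th to 95th percentile of all tested genes. All genes of the 5 lists lie within the band, and the 3 filled circles, *Sorcs3*, *Pcsk2* and *Cadps2*, are on the lower side.

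Among 15168 genes with a mean TPM above 1, those whose log2 CPM followed a member most closely over the 8 samples were as follows. These correlations are descriptions over samples that share library size and cell makeup. For *Bdnf* they were *Jph4* (Pearson r = 0.985), *Igsf21* (0.983) and *C77370* (0.97), and for *Ntf3* they were *Myl12a* (0.991), *Gm20390* (0.981) and *Mrpl14* (0.979), where vehicle replicate 1 lies far from the rest. For *Ntrk2* the closest was *Shc3* (0.954), an adaptor of Trk receptors that belongs to the list above, followed by *Armcx2* (0.951) and *Dact3* (0.951). For *Ntrk3* they were *Gm15688* (0.972), *Wdr89* (0.962) and *4930469G21Rik* (0.959), and for *Sort1* *Ccdc85a* (0.964), *Cntnap3* (0.963) and *Gm14253* (0.960).

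The direction of the members' small differences depended on the setting for *Ntf3* and *Sort1* only. Over 17 other settings, *Bdnf* kept a log2 fold change between -0.33 and -0.17, *Ntrk2* between -0.20 and -0.02 and *Ntrk3* between -0.22 and -0.11. *Ntf3* ranged from -0.26 to 0.36 and *Sort1* from -0.06 to 0.12. No member was called under any of the 17.

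**Figure D5:**
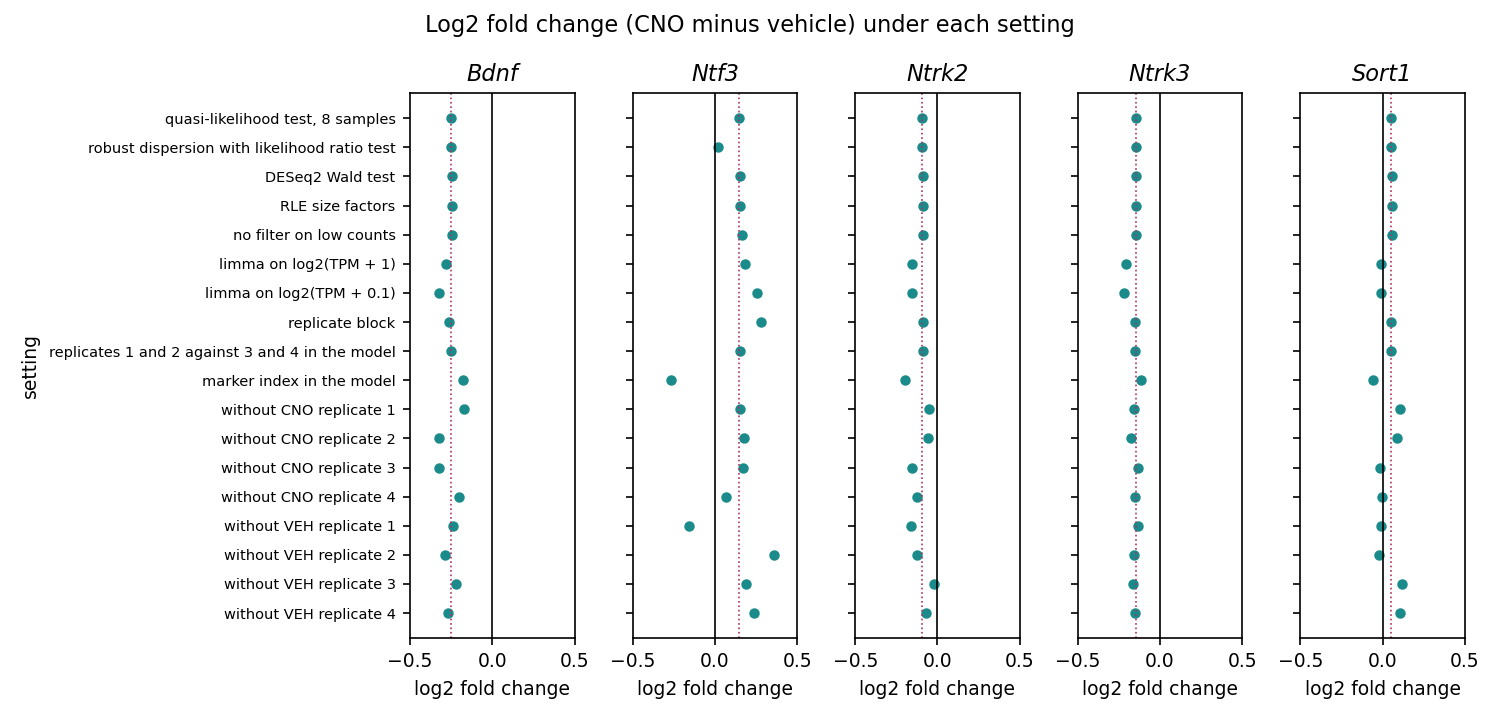
Log2 fold change of CNO against vehicle (horizontal axes) of the 5 tested members under each setting (rows, the test of all 8 samples on top). The dotted line marks the value of the top row and the solid line 0. *Bdnf*, *Ntrk2* and *Ntrk3* stay below 0 in all rows, whereas *Ntf3* and *Sort1* fall on both sides.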

How the data were processed

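Ribosome-associated mRNA was sequenced from 8 samples. The authors ran FastQC, Trim Galore, STAR and Salmon on GRCm38/mm10, and deposited estimated counts per gene (not normalized, replicates not pooled) and TPM values derived from them. Total counts are given above, and library sizes differ little, so depth limits mainly *Ngfr*. Groups and replicate numbers were taken from the sample titles.

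Rounded estimated counts were tested with edgeR 4.0.16 (R 4.3.3). A gene was left out where at least 4 samples held fewer than 10 counts, and CNO was compared with vehicle after TMM normalization by the quasi-likelihood test, tested on simulated data first. Intervals are from the fitted coefficients, and single-sample log2 CPM used a prior count of 2. Ratios were compared by exact permutation. Tests between neighbouring members in the order of levels were planned but are not given, because the same values set the order. A *Sort1*/*Ngfr* ratio was planned but not formed, because *Ngfr* had at most 3 counts. Alternatives were limma 3.58.1 on log2(TPM + 1) and log2(TPM + 0.1), DESeq2 1.42.0, robust dispersion with a likelihood ratio test, RLE size factors, no filter, covariates and each sample left out. Plots were drawn with matplotlib 3.10.9. Positions and transcripts came from GENCODE M21.

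The members and lists were chosen with earlier results of these data known. Genes were named by rule: the members, *Fos*, marker sums, list genes at an unadjusted p under 0.05 or otherwise the 3 most abundant, and the 3 genes most correlated with each member. *Pvalb*, *Slc17a7*, *Bex1*, overlapping genes and other neurotrophin and sorting receptor genes were named beyond it, after their values were seen. Some genes of the lists enter the counts but are not reported here by name. The sources name no further separation of the samples than the pooling of brains, so p-values measure the spread between these samples.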

Additional observations from a re-analysis of the deposited data

Results flagged for a closer look

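The *Ntf3* level of vehicle replicate 1 stood apart from the other 3 vehicle samples. Its log2 CPM was -0.36 against 1.41 to 1.77, and the gap to the nearest sample took up 0.831 of the range of the group, just above Dixon's 95% critical value for 4 samples. Of 10 groups of values examined in this way (5 members in 2 treatment groups), 1 was marked, where 0.5 would be by chance. The same sample had the lowest PV+ interneuron markers, and the part of these in the *Ntf3* value was not tested. The model with the marker index given above cannot separate it from treatment.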

How the results depend on the processing

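The count of 0 called genes became 12 with robust dispersion and the likelihood ratio test, 10 with DESeq2, 4 without the filter on low counts and 3 with replicates 1 and 2 against 3 and 4 in the model, and was 0 to 2 with a sample left out (2 without CNO replicate 1). Members called stayed at 0. The log2 fold change of *Sort1* turned to -0.011 and -0.012 with limma on log2(TPM + 1) and log2(TPM + 0.1), scales on which the median of all genes was -0.06 and -0.08, and to -0.057 with the marker index, and ranged from -0.020 to 0.12 with a sample left out. *Ntf3* was -0.26 with the marker index and -0.16 (without vehicle replicate 1) to 0.36 with a sample left out. The log2 differences of *Ntrk3*/*Ntrk2* and *Ntf3*/*Ntrk3* then ranged from -0.146 to 0.027 and from -0.0043 to 0.716. The cause was not tested. An unadjusted p under 0.05 arose for *Bdnf* without CNO replicate 2 (log2 fold change -0.32) and for *Ntrk2* with the marker index, with adjusted p-values over all alternatives of 0.473 to 1.00 and 0.731 to 1.00.

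Replicate numbers gave no clear pairing of single samples. Same-numbered samples deviated from their group means with correlations of 0.026, -0.030, 0.161 and 0.239, and not every sample correlated best with its own number. CNO replicate 2, for example, correlated at 0.431 with vehicle replicate 1. Whether equal numbers mark shared processing is not in the labels and was not tested. The replicate block gave 0 called genes, log2 fold changes of -0.26 for *Bdnf*, 0.28 for *Ntf3* and -0.15 for *Ntrk3*, and changed no call. Depth limits *Ngfr* only. With 4 samples a group, the interval of *Ntf3* spans 0.642 to 1.90 times vehicle.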
